A study of Mus musculus with 26 samples.

Results

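The secreted Wnt antagonists described here are 10 genes: Sfrp1, Sfrp2, Sfrp4, Sfrp5 and Frzb, which encode secreted Frizzled-related proteins, Wif1, Dkk1, Dkk2, Dkk3 and Notum. Their rows were taken by gene symbol from 2 deposited RNA-seq count tables, each of 41442 gene rows, and all 10 were found in both. All 10 passed the low-count filter in the fetal table, where 17858 genes were tested. Of the 10, 7 passed in the uterine table, among 16195 tested genes; Sfrp5, Wif1 and Dkk1 did not. Dkk1 and Wif1 were highest in E14.5 males and Sfrp4 at E16.5, and each could pass the fetal filter through those groups alone.

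The libraries were made from reporter-labelled cells sorted from the mouse reproductive tract. Embryos carried Gli1-CreER with Rosa-Tomato, or Amhr2-Cre with Rosa-Tomato, and the treatment listed for both was 1 mg of tamoxifen per dam, injected into the peritoneum at E12.5 and E13.5. Gli1-CreER switches the red reporter on in cells that express Gli1, a hedgehog target, when tamoxifen is present; Amhr2-Cre marks cells, and their descendants, that have expressed the receptor of anti-Müllerian hormone. Gli1+ cells came from the mesonephros of female and male embryos at E14.5 and at E16.5, 3 libraries in each of the 4 groups, and Amhr2+ and Gli1+ cells came from the female neonatal uterus at E19.5, 3 libraries each. No group without reporter or tamoxifen was among the samples, and a label records past Cre activity, so a sorted cell need not still express the gene that marked it. Nothing in the labels says that replicates came from separate litters, so p-values measure the spread between these samples, which may be technical.

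Wnt proteins are secreted lipid-modified ligands that bind Frizzled receptors and, in the beta-catenin branch, the co-receptors Lrp5 and Lrp6. Secreted Frizzled-related proteins and Wif1 bind the ligands themselves, Dkk1 binds the Lrp co-receptors together with Kremen proteins, and Notum is an enzyme that removes the lipid a Wnt needs for receptor binding. Wnt signals between mesenchyme and epithelium are known to take part in the formation and regional patterning of the Müllerian duct, which becomes oviduct, uterus and upper vagina, and Wnt activity is needed for its regression in males. These are statements of background, not results.

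Levels are given as CPM, read counts scaled to a common library size within each table, and values after ± are standard deviations with n = 3. Library totals were 23382983 to 64602477 counts in the fetal and 28709191 to 37541045 in the uterine table, and the limit of detection, taken as 3 counts, lay at 0.0485 to 0.126 CPM in the former and 0.0778 to 0.102 CPM in the latter. Of 6 mesenchyme markers none was at 0 in any library, and their summed level was 33481 to 64393 CPM in the mesonephros and 26038 to 61179 CPM in the uterus. Summed epithelial markers reached at most 50.8 CPM, immune markers 16.2 CPM and germ cell markers 6.53 CPM. Sums were larger for other cell types. Endothelial markers reached 67.7 CPM, in the mesonephros. Mesothelial markers reached 71.5 CPM and gonadal somatic markers 119 CPM, both in uterine Amhr2+ cells. Smooth muscle markers reached 2842 CPM, in E16.5 males. Female replicate 3 at E14.5 held 949 CPM of summed erythroid markers, against at most 21.95 CPM in the other libraries. The marker genes of sex matched the labels, with low counts of the other sex at E14.5. The male marker Ddx3y reached 2.17 CPM in E14.5 females, against 126 CPM or more in E14.5 males. The female marker Xist reached 16.2 CPM in E14.5 males, against 3619 CPM or more in E14.5 females. Gli1 stood at 184 ± 0.295 CPM in E14.5 females, 228 ± 17.0 in E14.5 males, 208 ± 13.3 in E16.5 males and 50.7 ± 2.88 in the females of that age. In bulk samples such as these, fewer cells of a type and less RNA per cell cannot be told apart.

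Sfrp1 was the most abundant of the genes in fetal mesenchyme. Per kilobase of exon, it measured 216 CPM in E14.5 females, 173 in E14.5 males, 150 in E16.5 males and 109 in the females of E16.5, and Sfrp2 came next in all 4 groups with 29.2, 20.4, 35.4 and 72.5 in the same order. Of the summed per-length level of the 10 genes, Sfrp1 took 75.2% ± 0.696 in E14.5 females and 76.2% ± 1.88 in E14.5 males, and still 71.3% ± 0.692 in E16.5 males. In E16.5 females its share was 50.3% ± 3.80, with Sfrp2 at 33.6% ± 2.77. The ratio of Sfrp1 to Sfrp2 per length ran from 6.83 to 7.90 in E14.5 females, 7.89 to 9.75 in E14.5 males, 3.95 to 4.55 in E16.5 males and 1.28 to 1.76 in E16.5 females. In the uterus the order of the pair was turned: Sfrp2 measured 84.7 in Amhr2+ and 114 in Gli1+ cells per kilobase, and the ratio of Sfrp1 to Sfrp2 was 0.262 to 0.391 and 0.444 to 0.472. The fetal and uterine tables come from different library kits and were scaled separately, so this order is set within each table and no change between them was tested.

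**Figure D1:**
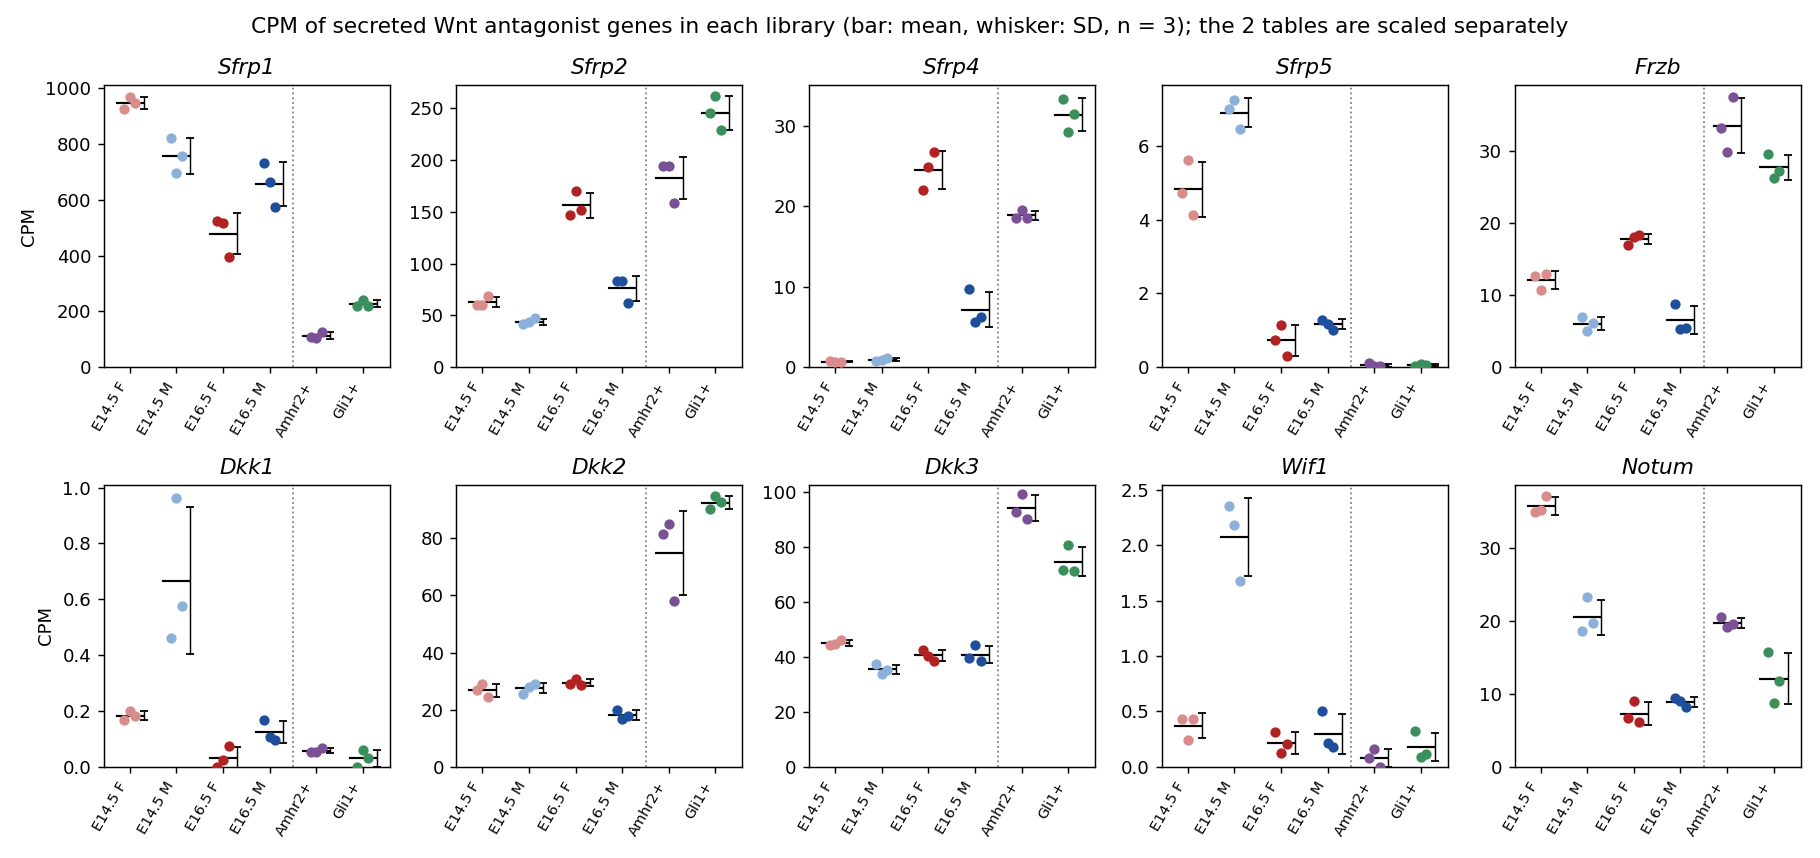
Level of each gene (CPM, linear axis from 0, one panel per gene) in every library of the 6 RNA-seq groups; points are libraries, horizontal bars group means and whiskers 1 SD with n = 3, and the dotted line parts the separately scaled fetal (left) and uterine (right) tables. Sfrp4 is at most 1.14 CPM in all 6 libraries of E14.5 and between 21.9 and 26.7 CPM in the E16.5 females, while Wif1 reaches 1.68 CPM or more in the 3 E14.5 male libraries alone.

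**Figure D2:**
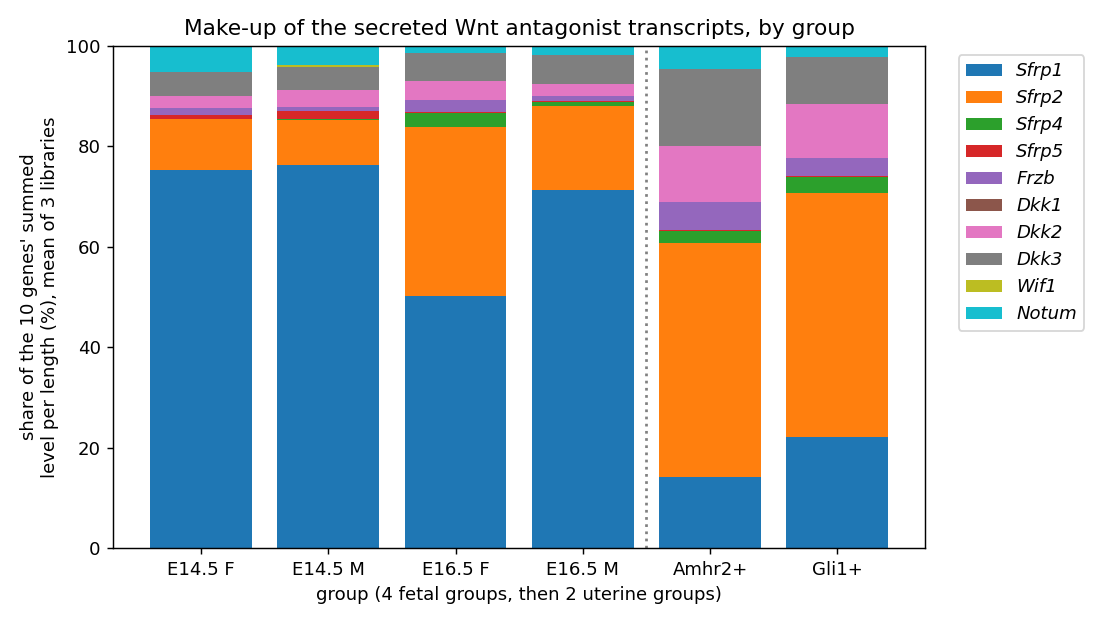
Share of each gene (percent, stacked) in the summed level per exon length of the 10 genes, as the mean of 3 libraries in each of the 6 groups; the dotted line parts the fetal from the uterine groups. Sfrp1 fills 71.3% to 76.2% of the bar in 3 fetal groups, 50.3% in E16.5 females, and 14.3% and 22.2% in uterine Amhr2+ and Gli1+ cells.

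The start regions of 4 genes are shown because these genes split by sex at E14.5: Sfrp2 and Frzb were higher in females, Wif1 and Dkk1 in males. Each sequence is the RefSeq promoter on build GRCm38.p6, 250 bases before to 50 bases after the annotated start, read 5′ to 3′ on the strand of the gene, and capitals mark matches to CTTTGA, the core of the motif bound by TCF and LEF factors, on either strand. They lie at chr3:83766071-83766370 (plus strand) for Sfrp2, chr2:80447347-80447646 (minus strand) for Frzb, chr10:121033754-121034053 (plus strand) for Wif1 and chr19:30549447-30549746 (minus strand) for Dkk1.
Sfrp2: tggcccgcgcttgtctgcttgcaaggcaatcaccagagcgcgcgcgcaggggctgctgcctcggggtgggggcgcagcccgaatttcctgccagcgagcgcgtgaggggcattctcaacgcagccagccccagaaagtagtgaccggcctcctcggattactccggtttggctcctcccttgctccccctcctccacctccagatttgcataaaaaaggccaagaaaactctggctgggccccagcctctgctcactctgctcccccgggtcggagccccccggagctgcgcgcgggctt
Frzb: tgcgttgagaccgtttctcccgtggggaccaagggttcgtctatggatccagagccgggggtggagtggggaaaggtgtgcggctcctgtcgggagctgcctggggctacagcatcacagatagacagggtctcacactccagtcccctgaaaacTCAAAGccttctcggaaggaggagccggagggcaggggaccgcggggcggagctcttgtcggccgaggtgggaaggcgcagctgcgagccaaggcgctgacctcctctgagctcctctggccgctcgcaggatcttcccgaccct
Wif1: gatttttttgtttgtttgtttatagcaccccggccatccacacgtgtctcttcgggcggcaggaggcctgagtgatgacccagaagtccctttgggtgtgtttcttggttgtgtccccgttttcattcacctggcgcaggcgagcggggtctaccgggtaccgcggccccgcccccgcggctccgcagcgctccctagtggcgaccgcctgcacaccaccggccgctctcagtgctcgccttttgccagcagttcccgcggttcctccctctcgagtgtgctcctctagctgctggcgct
Dkk1: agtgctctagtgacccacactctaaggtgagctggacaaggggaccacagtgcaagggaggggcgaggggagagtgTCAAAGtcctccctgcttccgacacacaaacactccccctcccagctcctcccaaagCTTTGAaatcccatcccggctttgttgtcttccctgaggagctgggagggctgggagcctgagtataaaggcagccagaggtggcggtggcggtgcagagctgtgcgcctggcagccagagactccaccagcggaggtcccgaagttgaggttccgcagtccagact

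All 300 bases shown for Sfrp2, Frzb and Dkk1 lay under a peak of open chromatin, and 167 of the 300 for Wif1. The peaks come from the authors' single unified list of 71040 ATAC-seq peaks over 8 samples of fetal Gli1+ cells, which has no sample column, so they say where chromatin was open in at least some of the samples and nothing about sex or age. The RefSeq table held promoters for 6 of the 10 genes (these 4, Sfrp5 and Dkk2), of which 4 overlapped a peak, against 42.2% of all 32851 promoters. That share covers promoters whether or not their genes passed the count filter. Among tested genes, 72.6% had a peak within 200 bp of the gene start. The 7-base motif CTTTGAT was in 0 of the 6, against 3.73% of all promoters, and the GLI motif TGGGTGGTC in 0, against 0.253%. With 1 base less, a search added after seeing these results, CTTTGA was found in 2 of the 6. It lay once in Frzb, 95 bases before the RefSeq start, and in Dkk1 at 174 and 117 bases before it. The gene start used for the peaks below lay 229 bases upstream of the RefSeq start in Frzb and 169 in Dkk1. By that start the Frzb match and the Dkk1 match at 117 bases lay inside the gene. The share of all promoters with CTTTGA was 16%, and the shortened GLI motif GGGTGGTC was in 0 of the 6 and in 0.807% of all. Such matches describe the letters and show no binding.

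A peak lay within 1 kb of the start of all 10 genes, against 79% of 17836 tested genes, and within 200 bp for 9 of them, against 72.6%. In all, 28 peaks lay at the genes, 14 within 1 kb of a start and 14 only inside the gene. Wif1 held 6 peaks overlapping the gene, Dkk3 5 and Sfrp1 4. Dkk2 held none: its single peak was 129 bp wide, at chr3:132084181-132084309, centred at -1047 bp from the start. Of the 23 peak windows searched (300 bp around the centre), 6 held CTTTGA, 0 held CTTTGAT and 0 held either GLI motif, against 18.9%, 4.45%, 0.463% (TGGGTGGTC) and 1% (GGGTGGTC) of 70999 windows. The peaks within 1 kb of the starts of Sfrp1, Sfrp4, Dkk3 and Notum were not searched, as these genes had no RefSeq promoter.

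**Figure D3:**
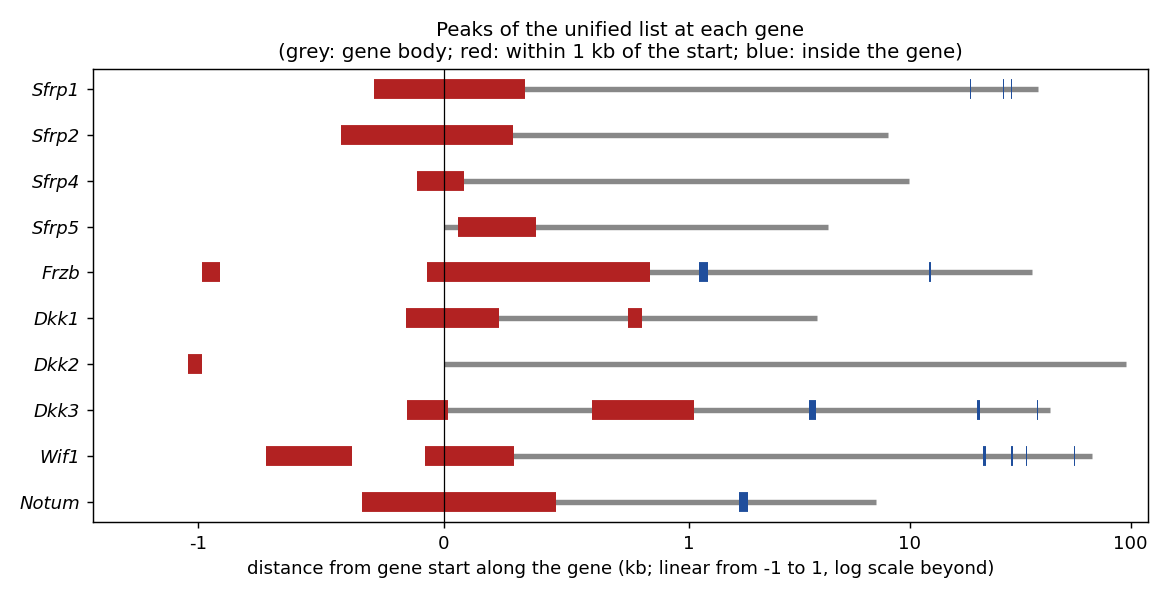
Peaks of the unified ATAC-seq list along each gene, drawn by distance from the gene start in kb (linear between -1 and 1, log scale beyond); grey bars are gene bodies, red boxes peaks within 1 kb of the start and blue boxes peaks only inside the gene. Each of the 10 genes has a red box; that of Dkk2 lies upstream of its start, centred at -1047 bp, and Dkk2 has no peak along its body.

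The comparison of female with male Gli1+ cells at E14.5 bears on a time when both duct systems are still present. At this age 6 of the 10 genes passed an adjusted p of 0.05, against 6.28% of all tested genes (1121 genes, and 553 to 1678 when single libraries were left out): Frzb, Notum, Sfrp2 and Dkk3 were higher in females, and Wif1 and Dkk1 in males. The median log2 fold change of the 10 genes, female minus male, was 0.14, beside -0.01 for all genes.

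Wif1, a ligand-binding antagonist, was at 0.434, 0.239 and 0.434 CPM in the E14.5 female libraries and at 2.36, 2.18 and 1.68 CPM in the males. The groups did not overlap, and the log2 fold change was -2.45 (SE 0.371, adjusted p 7.90e-04), a 5.45-fold lower level in females. Dkk1, the Lrp-binding antagonist, was counted 5, 5 and 5 times in the females and 11, 41 and 32 times in the males. Its log2 fold change of -1.89 (SE 0.454, adjusted p 0.0200) thus rested on few reads. The call on Dkk1 was lost without female replicate 1, 2 or 3 (adjusted p 0.101, 0.0706 and 0.0858) and without male replicate 2 (0.122). Dkk2, also of the Dickkopf family, stood at 26.7 ± 2.27 CPM in females and 27.5 ± 1.76 in males, and its ranges overlapped (log2 fold change -0.04, 95% interval -0.23 to 0.14).

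Frzb, a secreted Frizzled-related protein first found in cartilage, measured 12.6, 10.7 and 13.0 CPM in E14.5 females and 6.94, 5.07 and 6.17 CPM in males. All females were above all males (log2 fold change 1.01, SE 0.172, adjusted p 0.00233). Sfrp2 measured 59.8, 60.4 and 68.2 CPM in females and 41.5, 43.1 and 47.2 in males, without overlap (log2 fold change 0.51, SE 0.104, adjusted p 0.00739). Notum, the Wnt deacylase and itself a known target gene of Wnt signalling, measured 34.9, 35.3 and 37.1 CPM in females and 18.6, 23.2 and 19.7 in males (log2 fold change 0.80, SE 0.122, adjusted p 8.81e-04). Notum is uncertain in the fetal table, since it overlaps the antisense genes Notumos and Myadml2os and the fetal kit does not mark strand. Notumos moved with it, at 4.31 to 5.69 CPM in E14.5 females, 2.42 to 3.71 in E14.5 males and 0.710 to 1.26 over all 6 libraries of E16.5, while Myadml2os was at most 1.10 CPM. Sfrp2 overlaps an antisense gene at its end, RP24-187J17.1, which measured 0.434 to 1.05 CPM in E14.5 females, 0.547 to 0.631 in E14.5 males, 1.44 to 1.89 in E16.5 females and 0.533 to 0.896 in E16.5 males. The part of these antisense genes in the Notum and Sfrp2 values was not tested. Dkk3, a divergent member of the Dickkopf family, was at 45.0 ± 0.977 CPM in females and 35.4 ± 1.72 in males (log2 fold change 0.35, SE 0.0716, adjusted p 0.00795).

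Sfrp1 was at 946 ± 21.8 CPM in E14.5 females and 757 ± 63.5 in males; the libraries did not overlap, but the test across all genes gave an adjusted p of 0.0965 (log2 fold change 0.32, SE 0.107). DESeq2 gave 0.0426 for Sfrp1, edgeR with replicate number as a block 0.00728 and a fit of the 6 libraries alone 0.0107. That fit also gave 0.0352 for Sfrp5, which at 4.82 ± 0.749 CPM in females and 6.89 ± 0.394 in males had an adjusted p of 0.246 in the fit of all 12. Sfrp4 was at most 1.14 CPM in both sexes (adjusted p 0.394). Sfrp4 and Sfrp5 did not overlap between the sexes either, so lack of overlap did not mark out called genes at E14.5. How many of all genes lacked overlap was not computed.

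At E16.5, when the ducts of the other sex have begun to be lost, 5 of the 10 genes passed the threshold against 27.3% of all tested genes. Both values are from the fit without a replicate block. With replicate number as a block 7 passed, but the share of all genes in that fit is not given here. Sfrp4, Frzb, Sfrp2 and Dkk2 were higher in females and Sfrp1 was lower. The median log2 fold change of the 10 was -0.14, beside 0.01 for all genes.

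Sfrp4 measured 21.9, 24.8 and 26.7 CPM in the E16.5 females and 9.66, 5.55 and 6.20 CPM in the males. The lowest female library was above the highest male library by more than the whole spread of either group, and the log2 fold change was 1.78 (SE 0.167, adjusted p 9.11e-07), or 3.43-fold. Frzb, at 17.0, 18.1 and 18.4 CPM in females and 8.74, 5.34 and 5.38 in males, also split the sexes without overlap (log2 fold change 1.46, SE 0.166, adjusted p 7.82e-06). Sfrp2 measured 147, 170 and 152 CPM in females against 83.5, 82.9 and 62.2 in males (log2 fold change 1.04, SE 0.103, adjusted p 1.83e-06). Dkk2 was the only gene of the Dickkopf family to pass the test here, at 28.9, 30.8 and 28.5 CPM in females and 20.1, 16.8 and 17.8 in males (log2 fold change 0.69, SE 0.0858, adjusted p 1.79e-05).

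Sfrp1 went the other way at E16.5, with 523, 517 and 394 CPM in females and 732, 665 and 575 in males. The groups did not overlap (log2 fold change -0.46, SE 0.107, adjusted p 0.00468). Dkk3, at 40.5 ± 1.98 CPM in females and 40.7 ± 3.13 in males, overlapped between the sexes (95% interval of the log2 fold change -0.16 to 0.14). Notum (7.28 ± 1.59 against 8.88 ± 0.674 CPM, adjusted p 0.127) and Sfrp5 (0.724 ± 0.415 against 1.16 ± 0.133 CPM, adjusted p 0.122) missed the threshold. Both were called lower in females when replicate number was taken as a block (Notum -0.30, adjusted p 0.0476; Sfrp5 -0.75, adjusted p 0.0380) and without female replicate 2 (0.00719 and 0.0125). Wif1, with a 95% interval from -1.41 to 0.54, was near the low end of detection in both sexes. Dkk1 was counted 0, 1 and 3 times in females and 7, 4 and 6 times in males, too few for a fold; its adjusted p was 0.0857, and 0.0321 without female replicate 3.

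Of 4 smooth muscle markers Acta2, Cnn1 and Myh11 were higher in males at both ages, whereas Des did not pass the test at either; at E16.5 its mean was 205 CPM among females and 196 CPM among males. The share of all genes called lower in females was 3.69% at E14.5 and 14.1% at E16.5. The summed level of the 4 markers was 297 to 320 CPM in E14.5 females and 596 to 879 in E14.5 males, and 461 to 561 against 1691 to 2842 CPM at E16.5. Summed mesothelial markers were 20.2 to 44.0 CPM in E16.5 females and 42.3 to 59.2 in males, and 2 of 4 were lower in females. None of these 8 genes was at 0 in a fetal library. Immune markers lay the other way at E16.5, with 3 of 4 higher in females and sums of 7.03 to 16.2 CPM against 1.71 to 3.44 CPM in males. Of all tested genes 13.2% were called higher in females at E16.5. At the same age 2 of 4 endothelial, both tested germ cell and 2 of 5 tested gonadal somatic markers were lower in females, and of the mesenchyme markers 2 were higher and 1 was lower. The part of these markers in the sex differences of the Wnt antagonists was not tested.

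**Figure D4:**
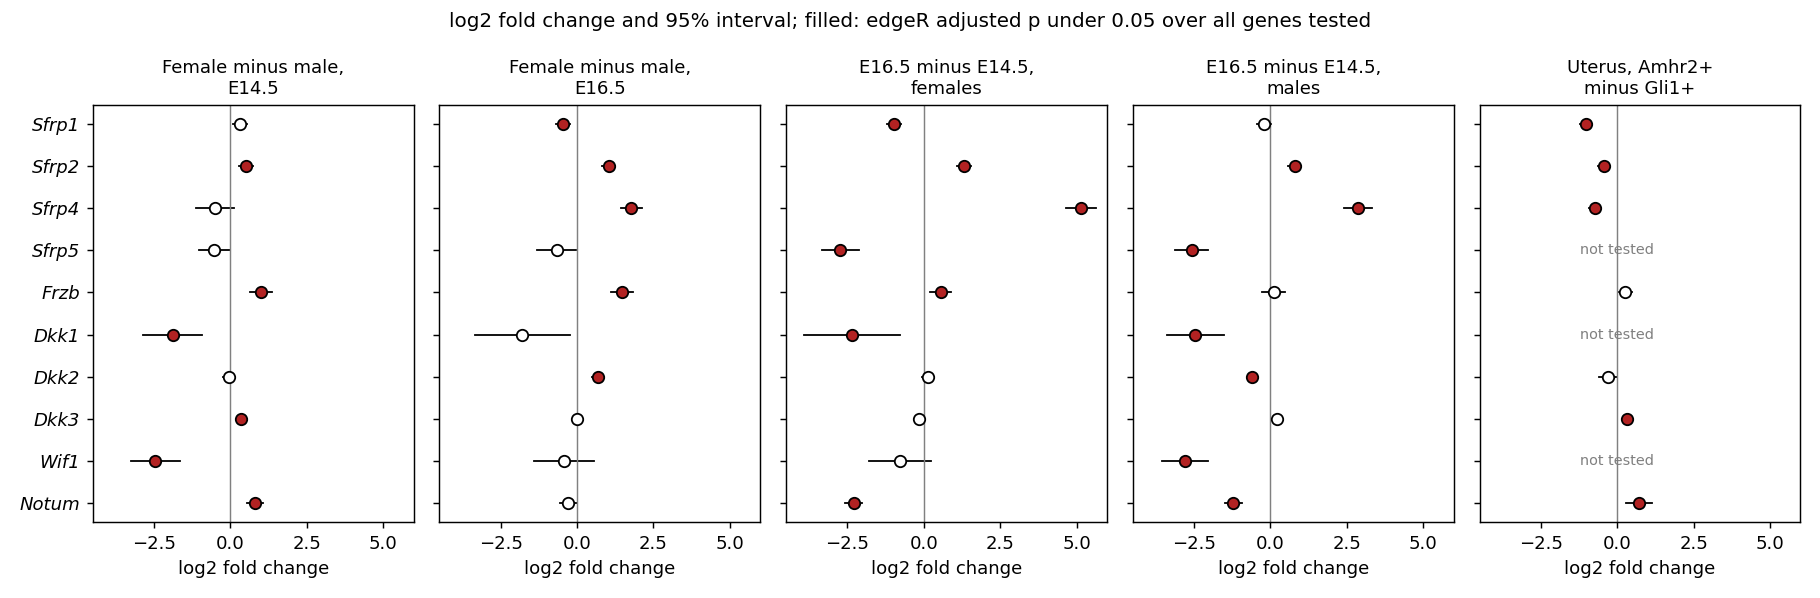
Log2 fold change of each gene (x axis) with its 95% interval in the 2 sex comparisons, the 2 age comparisons and the uterine comparison, one panel each; filled points passed an adjusted p of 0.05 by edgeR over all tested genes and open points did not. Sfrp4 lies at 5.15 in the panel of female age, and the points of Sfrp1 lie at 0.32 and -0.46 in the sex panels of E14.5 and E16.5.

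From E14.5 to E16.5 in females 7 of the 10 genes passed the test, against 39.6% of all tested genes: Sfrp4, Sfrp2 and Frzb rose, and Sfrp5, Dkk1, Notum and Sfrp1 fell. In males 7 passed as well, against 23.3%: Sfrp4 and Sfrp2 rose, and Wif1, Sfrp5, Dkk1, Notum and Dkk2 fell. The median log2 fold change, E16.5 minus E14.5, was -0.47 in females and -0.40 in males, beside 0.00 and -0.01 for all genes. The age and the sex comparisons share groups, so their values are not independent of each other. Cell type markers moved with age as well: 3 of 4 smooth muscle markers rose in females and 4 of 4 in males, and 4 of 6 mesenchyme markers rose in both sexes. Of 4 immune markers 3 rose in females and 1 in males, and 2 of 7 epithelial markers fell in both sexes. Endothelial markers fell in females (2 of 4) and rose in males (2 of 4). The part of these markers in the age changes of the Wnt antagonists was not tested.

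Of the 10 genes Sfrp4 had the largest log2 fold change with age in females; in males it and Wif1 (-2.80) were close in size. Sfrp4 was at 0.735, 0.677 and 0.652 CPM in E14.5 females and at 0.757, 0.939 and 1.14 CPM in E14.5 males, low but above the level of 3 reads in every library. Against the E16.5 values above, its log2 fold change was 5.15 in females (SE 0.229, adjusted p 2.87e-10), or 35.4-fold, and 2.86 in males (SE 0.210, adjusted p 9.47e-08), or 7.27-fold. Sfrp2 rose 2.49-fold in females (log2 fold change 1.31, SE 0.104, adjusted p 1.50e-07) and 1.73-fold in males (0.79, SE 0.104, adjusted p 4.14e-05). Frzb rose in females by 0.56 on the log2 scale (SE 0.163, adjusted p 0.0137), a call lost without E14.5 female replicate 2 (adjusted p 0.0648). In males its ranges overlapped (0.10, 95% interval -0.26 to 0.47).

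Sfrp5, a family member known from foregut endoderm and fat tissue, fell in both sexes. It went from 4.71, 5.61 and 4.13 to 0.735, 1.13 and 0.303 CPM in females and from 6.98, 7.23 and 6.46 to 1.28, 1.18 and 1.02 CPM in males. The log2 fold changes were -2.72 (SE 0.281, adjusted p 2.24e-06) and -2.58 (SE 0.257, adjusted p 2.26e-06), and neither sex overlapped between the ages. Notum fell to 6.66, 9.09 and 6.09 CPM in females and 9.49, 9.0 and 8.16 CPM in males. Its log2 fold changes were -2.30 (SE 0.131, adjusted p 3.59e-09) and -1.21 (SE 0.127, adjusted p 3.67e-06), with the strand limit given above. Sfrp1 fell 1.98-fold in females (log2 fold change -0.98, SE 0.108, adjusted p 4.74e-06), whereas in males the ranges overlapped (-0.20, 95% interval -0.43 to 0.02, adjusted p 0.191).

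Wif1 fell in males, to 0.508, 0.214 and 0.178 CPM at E16.5 (log2 fold change -2.80, SE 0.355, adjusted p 2.67e-05). Its female values, 0.318, 0.123 and 0.202 CPM at E16.5, overlapped those at E14.5 (adjusted p 0.206). Dkk1 fell in males (-2.45, SE 0.437, adjusted p 6.71e-04). In females it passed with an adjusted p of 0.0204 that rests on 4 reads at E16.5 and was lost without E14.5 female replicate 2 (0.0534) and without E16.5 female replicate 1 or 2 (0.0691 and 0.0607). Dkk2 fell in males (log2 fold change -0.60, SE 0.0860, adjusted p 9.89e-05), and in females its ranges overlapped (0.14, 95% interval -0.05 to 0.32). Dkk3 missed the threshold in both sexes (-0.15, adjusted p 0.100, in females; 0.20, adjusted p 0.0542, in males). It was called higher with age in males by DESeq2 (adjusted p 0.0345), with RLE factors (0.0470), without E14.5 male replicate 1 (0.0413) and without E16.5 male replicate 3 (0.0274). In females Dkk3 was called lower with library size alone (0.0467) and in the fit of 6 libraries (0.0402).

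A change in the sex difference between the ages was tested as the interaction, the female minus male log2 fold change at E16.5 less that at E14.5. It passed for 7 of the 10 genes, against 10% of all tested genes, and 4 passed when E14.5 female replicate 1 or 2, or E14.5 male replicate 2 or 3, was left out. Sfrp4 gave 2.28 (SE 0.332, adjusted p 3.01e-04), Dkk2 0.73 (SE 0.121, adjusted p 8.87e-04), Notum -1.08 (SE 0.179, adjusted p 8.87e-04) and Sfrp1 -0.78 (SE 0.151, adjusted p 0.00318). These 4 passed in every alternative fit that was run. For Sfrp1 the female libraries were all above the males at E14.5 and all below them at E16.5, as the plot of levels shows.

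The other 3 interactions were weaker. Sfrp2 gave 0.52 (SE 0.146, adjusted p 0.0315), lost without E14.5 female replicate 1 or 2, E14.5 male replicate 2 or 3, or E16.5 female replicate 2 (adjusted p 0.0591 to 0.100). Dkk3 gave -0.35 (SE 0.101, adjusted p 0.0353), lost with library size alone (0.0509) and without any 1 of 8 libraries: the 3 of E14.5 females, E14.5 male replicates 2 and 3, E16.5 female replicates 2 and 3 and E16.5 male replicate 2 (0.0634 to 0.0927). Wif1 gave 2.02 (SE 0.609, adjusted p 0.0475), kept only when the library left out was E16.5 female replicate 2 or E16.5 male replicate 1, and 0.0551 to 0.197 without any other. Frzb gave 0.45 (SE 0.238, adjusted p 0.270; 0.0103 without E16.5 male replicate 1), so its higher level in females was not shown to differ between the ages. Sfrp5 gave -0.15 (adjusted p 0.872), and Dkk1 had too few reads at E16.5 for an estimate of use.

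In the order of the 4 fetal groups, E16.5 females were highest for Sfrp2, Sfrp4, Frzb and Dkk2, E14.5 females for Sfrp1, Dkk3 and Notum, and E14.5 males for Sfrp5, Wif1 and Dkk1. Not all neighbours in these orders were apart. The ranges of E16.5 males and E14.5 females overlapped for Sfrp2, Dkk1 and Wif1, and those of the 2 male groups for Frzb and Sfrp1. Females and males of E16.5 overlapped for Sfrp5, Dkk3, Notum and Wif1, and all groups but E16.5 males for Dkk2. For Sfrp4 no neighbouring ranges overlapped, though the 2 lowest groups, both at E14.5, were not apart by the test.

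In the uterus at E19.5, Amhr2+ cells were compared with Gli1+ cells. Amhr2 itself was at 7.25 to 15.8 CPM in Amhr2+ and 3.35 to 5.23 CPM in Gli1+ libraries. Of the 7 tested Wnt antagonists 5 passed, against 23.9% of all tested genes (3866 genes; 1949 without Amhr2+ replicate 1 and 2521 without Gli1+ replicate 1). Sfrp1, Sfrp4 and Sfrp2 were lower in Amhr2+ cells, and Notum and Dkk3 were higher. The median log2 fold change was -0.30, Amhr2+ minus Gli1+, beside -0.00 for all genes.

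Sfrp1 measured 108, 104 and 126 CPM in Amhr2+ and 221, 241 and 220 CPM in Gli1+ libraries, a 2.02-fold lower level (log2 fold change -1.01, SE 0.0840, adjusted p 1.25e-04). Sfrp4 was at 18.8 ± 0.568 CPM in Amhr2+ libraries and at 33.3, 29.2 and 31.5 CPM in Gli1+ libraries (-0.73, SE 0.0801, adjusted p 4.63e-04). Sfrp2 measured 194, 194 and 159 against 245, 261 and 229 CPM (-0.43, SE 0.0915, adjusted p 0.0119). For all 3 of these Frizzled-related genes the Amhr2+ libraries lay below every Gli1+ library. Groups without overlap did not mark out called genes, since Frzb and Dkk2 missed the threshold and did not overlap either. The share of all genes without overlap was not computed. Frzb, of the same family, was at 33.6 ± 3.81 CPM in Amhr2+ and 27.8 ± 1.71 in Gli1+ cells and missed the threshold (0.27, SE 0.0971, adjusted p 0.0748). It was called higher in Amhr2+ cells with library size alone (0.0265), with no low-count filter (0.0433) and without Amhr2+ replicate 2 (0.0459).

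Notum measured 20.5, 19.1 and 19.53 CPM in Amhr2+ and 15.7, 8.70 and 11.8 CPM in Gli1+ libraries, without overlap (log2 fold change 0.71, SE 0.188, adjusted p 0.0290). The call was lost without any 1 of the 3 Amhr2+ libraries (0.0923, 0.0597 and 0.0668) and without Gli1+ replicate 3 (0.0676). Notumos was at 0.151 to 0.357 CPM in these libraries, made with a stranded kit. Dkk3 measured 92.5, 99.2 and 90.1 CPM in Amhr2+ and 71.7, 80.7 and 71.3 in Gli1+ cells (0.33, SE 0.0715, adjusted p 0.0119), also without overlap. Dkk2, at 74.9 ± 14.7 and 92.5 ± 2.34 CPM, missed the threshold (adjusted p 0.132), with Amhr2+ replicate 3 lowest at 58.1 CPM. Dkk1 was counted at most 2 times in any uterine library, which is under the limit of 3 reads. Sfrp5 reached at most 0.104 CPM and Wif1 at most 0.328 CPM.

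Summed mesenchyme markers were 26038 to 27865 CPM in Amhr2+ and 54295 to 61179 CPM in Gli1+ libraries. Of the 6, 5 were lower in Amhr2+ cells, against 13.7% of all tested genes called lower. Summed smooth muscle markers were 853 to 1372 and 1726 to 1799 CPM, but only 1 of the 4 was called lower in Amhr2+ cells. Most of that sum was Acta2, with means of 836 and 1370 CPM. Des had means of 189 and 192 CPM, and the libraries of Cnn1 overlapped. Summed epithelial markers were 49.8 to 50.8 and 18.02 to 29.5 CPM. Of 6 tested, 3 were called higher in Amhr2+ cells, against 10.1% of all tested genes. The part of these differences in the Wnt antagonist values was not tested.

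The other genes of the pathway are given from lists written for this description. Of those named below, Tcf7, Lef1, Lgr5, Rnf43, Kremen2, Ror1, Wnt5a and Wls overlap another gene of the table, which leaves their counts uncertain to that extent. Of 9 Wnt response genes, 7 fell and none rose with age in females and 6 fell and none rose in males, against 18.6% and 10.2% of all tested genes that fell. Tcf7, a TCF factor and target, changed by -1.44 in females and -0.58 in males (log2 fold changes), and Lef1 by -1.02 and -1.07. In the uterus 5 of 8 tested response genes were higher in Amhr2+ cells and none was lower, against 10.1% of all genes higher. Lgr5, an R-spondin receptor, differed by 1.95 but was low, at 1.31 ± 0.379 CPM in Amhr2+ and 0.332 ± 0.0742 in Gli1+ cells. Rnf43, which removes Frizzled receptors, differed by 0.86 and Tcf7 by 0.76. Between the sexes 2 response genes were higher in females at E14.5, Tcf7 (0.72) and Lef1 (0.44), and at E16.5 Lef1 was higher (0.49) and Nkd2, a Dishevelled inhibitor, was lower (-0.48).

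Of 18 receptors and co-receptors, 8 were higher and 1 lower in females at E16.5, where 27.3% of all tested genes passed, and 3 higher and 1 lower at E14.5, where 6.28% passed. Kremen2, a partner of Dkk1 at the co-receptor, had a log2 fold change of 1.31 at E16.5. Its level was low, at 1.22 ± 0.456 CPM in females and 0.493 ± 0.169 in males. Ror1, a receptor of the beta-catenin-independent branch, had 0.84 at that age, and Fzd7 -0.35. With age 3 rose and 6 fell in females, against 39.6% of all genes, and 2 rose and 8 fell in males (23.3% of all genes), among them Ror1 in males (-0.63). In the uterus 5 were lower in Amhr2+ cells and none was higher, against 13.7% of all genes lower, led by Fzd4 (-1.12) and Fzd7 (-0.66).

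Of 13 tested ligands, 2 were higher and 4 lower in females at E14.5, and 4 higher and 7 lower at E16.5, beside the same shares of all genes of 6.28% and 27.3%. Wnt2, at 0.364 ± 0.0270 CPM in E16.5 females and 1.84 ± 0.232 in males (-2.33), and Wnt10a, at 0.305 ± 0.0474 and 1.44 ± 0.369 CPM (-2.21), were both low in level and lower in females at that age. Wnt9b was lower too but was counted at most 2 times in an E16.5 female library. Wnt7a was counted 20 to 47 times in the E16.5 females and not once in the males. Wnt11 was higher in females at both ages (0.56 and 1.15), and Wnt9a was lower at E14.5 (-0.91). Wnt4, which the Müllerian duct needs to form, fell with age in both sexes, by 1.11 (females) and by 1.53 (males) on the log2 scale. In the uterus Wnt5a was higher in Amhr2+ cells (0.64) and Wnt11 lower (-1.11). The secretion factor Wls fell with age by 0.30 in females and by 0.34 in males.

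Among 7 tested antagonists and modulators outside the 10 genes, 3 were higher and 1 lower in females at E14.5 and 4 higher and 1 lower at E16.5, against 6.28% and 27.3% of all genes called in either direction. Shisa3, which holds Frizzled receptors inside the cell, changed with age by 1.17 in females and by -0.57 in males (log2), and at E16.5 differed by 2.49 between the sexes. Sostdc1, a secreted antagonist of BMP and Wnt signals, was lower in females at E14.5 (-1.90) and at E16.5 (-0.76). Its sex difference thus had the sign of those of Wif1 and Dkk1 at E14.5, while Apcdd1, a membrane inhibitor, was higher in females at both ages (0.44 and 0.39).

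The genes most like each antagonist over the 12 fetal libraries were taken from 10457 genes of at least 10 CPM in some group, by Pearson's r of log2 CPM. The libraries fall in 4 groups of 3, so r mainly compares the patterns of group means and is given as a description. Sfrp4 was most like Slc1a4 (r = 0.996), a neutral amino acid transporter, and Tnfaip8l3 (0.996), which went from 0.765 to 13.8 CPM in females and from 0.938 to 5.52 CPM in males. Sfrp2 was most like Gsn (0.986), the actin-severing protein gelsolin, and Sfrp1 like the channel gene Tpcn1 (0.980). Notum was most like Tcf7 (0.984), the response gene named above, which measured 65.2 CPM in E14.5 females, 39.6 in E14.5 males, 26.5 in E16.5 males and 24.1 in the females of E16.5. Frzb was most like Gnb2l1 (0.970) and Rxfp2 (0.968), the receptor of Insl3, at 37.9, 17.1, 15.5 and 47.7 CPM in the same order. Dkk2 was most like Ssbp3 (0.974), and Dkk3 like Ptprg (0.928). Sfrp5, Wif1 and Dkk1 stayed under 10 CPM and were not compared.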

How the data were processed

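Raw read counts per gene were deposited by the authors as one fetal and one uterine table with a column per library, and the unified ATAC-seq list deposited by the authors holds peak positions alone. The submitters' processing notes name STAR 2.5, featureCounts, Subread 1.5.0-p1, Bowtie 1.2, MACS2 2.1.1, SAMtools 1.3.1, bedtools 2.24.0 and Picard, with build mm10; their roles, the annotation and the use of strand are not given in the sources used here. Per the labels' protocols, the fetal kit was non-stranded and the uterine kit stranded, so the tables were fitted apart. The members and lists were chosen with earlier results of these data known.

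Groups were taken from the sample titles. Counts were tested in edgeR 4.0.16 by its quasi-likelihood F test (R 4.3.3; TMM scaling, filterByExpr by group, robust estimation), with Benjamini-Hochberg adjustment over all tested genes at 0.05. The 12 fetal libraries were fitted as 4 group means and the 6 uterine libraries as 2. The standard error is the log2 fold change divided by the root of its F statistic. Levels are CPM on the TMM-scaled library size. Lengths are merged exons of GENCODE vM21, from gene models on the assembly also called mm10. Intervals cover 95%, and limits of detection (3 counts) cover counting error only. The tests were tried on simulated counts first. Replicate pairs differed by more than sampling noise (chi-square per degree of freedom of 3.40 or more), and no 2 libraries were identical.

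All 10 members are named throughout; from each pathway list the text names at most 3 called genes per direction in a comparison, those of largest log2 fold change. Likeness used log2 CPM with a prior count of 2. Replicate numbers are shared between groups. The deviations of same-numbered libraries from their group means correlated at 0.284, 0.115 and 0.396 between the sexes at E16.5, all above 0.1, so there the pairing was counted as shown, though female replicate 2 and male replicate 1 gave 0.108 and no label ties a number to a litter. The reported values are those without a replicate block, so the standard errors and adjusted p at E16.5 leave that pairing out. At E16.5 the blocked values stand beside them where a call changed. In the other comparisons not every same-numbered pair was above 0.1, so the numbers were not taken as pairs. That rule cannot show that they are unpaired. Same-numbered libraries gave 0.0725, 0.0504 and 0.0508 by sex at E14.5, where different-numbered ones were all negative (-0.0434 to -0.00731). A pairing below the limit of 0.1 is thus possible there. In the uterus same-numbered libraries gave 0.00176, 0.221 and 0.243. Alternatives were DESeq2 1.42.0, RLE factors, library size only, no low-count filter, a replicate block, fits of the 6 libraries compared, and each library left out. Promoter sequences and coordinates are those of RefSeq on GRCm38.p6.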

Additional observations from a re-analysis of the deposited data

Results flagged for a closer look

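The test of the difference between the sex differences at the 2 ages, in one edgeR fit, singled out 7 of the 10 genes. On the log2 scale, female minus male at E16.5 less the same at E14.5, Sfrp4 gave 2.28, Wif1 2.02, Dkk2 0.73 and Sfrp2 0.52. Notum gave -1.08, Sfrp1 -0.78 and Dkk3 -0.35. Sfrp1 differed in sign between the ages, 0.32 at E14.5 (adjusted p 0.0965) and -0.46 at E16.5 (adjusted p 0.00468). For Notum and Dkk3 the higher level in E14.5 females had no counterpart that passed the test at E16.5 without a replicate block; with the block Notum was called lower in E16.5 females (-0.30, adjusted p 0.0476). For Sfrp4 and Dkk2 the E16.5 difference had no counterpart that passed at E14.5. No group had more than 3 libraries, so single libraries were not tested as outliers.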

How the results depend on the processing

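Over the 722 alternative values of the genes' log2 fold changes, 656 kept direction and call, 36 lost the call, 20 gained it and 10 changed sign. The calls lost or gained stand in the report, and those of the block outside E16.5 are given below. Leaving out 1 library changed sign only for values that had not passed: by sex, Dkk2 at E14.5 (-0.10 to 0.017; positive without female replicate 3), Dkk3 at E16.5 (-0.058 to 0.058; 0.030 without female replicate 3 and the highest value without male replicate 2) and Wif1 at E16.5 (-0.84 to 0.16; positive without male replicate 1). By age in males, Frzb ranged from -0.16 to 0.25, with -0.011 without the E14.5 library of replicate 2 and the lowest value without the E16.5 library of replicate 1. For the interaction, Sfrp5 ranged from -0.64 to 0.22 (positive without E16.5 female replicate 3) and Dkk1 from -1.12 to 0.64, with -0.25 without E14.5 male replicate 2 and -0.094 without E16.5 male replicate 3. With 1 library left out, the genes called ranged from 4 to 8 for the interaction, and all genes called from 553 to 1678 for sex at E14.5, from 1335 to 2687 for the interaction and from 1949 to 3521 in the uterus. Scaling by library size alone left 1847 of 4488 calls higher at E16.5 in males, against 2340 of 4168, and 2849 of 4489 higher in uterine Amhr2+ cells, against 1642 of 3866, and turned the sign of none of the Wnt antagonists. Promoters with the TCF and LEF motif numbered 2 with the shortened letters and 0 with the full ones. With the replicate block, 7 genes were called by sex at E16.5 against 5, and the share of all genes called with the block is not given here. Where the numbers were not taken as pairs, the block added Sfrp1 by sex at E14.5 (adjusted p 0.00728) and Frzb in the uterus (0.0410). It changed no other call there. Depth limits Dkk1 at E16.5 and Dkk1, Sfrp5 and Wif1 in the uterus. The cause of these changes was not tested.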
